A study of Citrus reticulata with 36 samples.

Results

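The 150 identifiers with the most even read level were described over 36 RNA-sequencing libraries of ponkan (Citrus reticulata) ovules. They were chosen from the measured counts themselves. Counts were divided by the library total and multiplied by 1000000 (CPM), identifiers with a mean of 50 to 500 CPM over the 36 libraries were taken as candidates, and the 150 with the smallest standard deviation (SD) of log2(CPM + 1) were kept. This gave 150 of 2616 candidates, or 5.73%, out of 128861 identifiers in the deposited table. Because the choice used the level in every library, the evenness of the members is a description and no test is drawn from it. The measured values bear out the name of the set only within limits, which the results give: the members were the most even of their level, but the highest library stood at 1.62 to 3.22 times the lowest.

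A reference gene is a transcript whose level is taken to be alike in all samples, so that other transcripts can be read against it. Genes of general cell upkeep, such as those of the cytoskeleton, of protein synthesis and of protein turnover, are the usual source of such references in plants. In an ovule the nucellus is the inner tissue in which the embryo sac lies, and the integument is the layer around it that later forms the seed coat, so a reference for both has to hold across tissues of different fate. The tables list the transcripts under identifiers alone, without names or bases, and no table that pairs them with genes was used here. No role is therefore given to any identifier below, the usual plant reference genes and the marker genes of nucellus and integument could not be looked up, and the labelled tissues could not be checked against such markers.

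Each library came from tissue taken out of ovule sections with a laser under the microscope (laser capture microdissection). The 12 groups joined 2 cultivars, "Huagan No.4" ponkan (HG) and "Egan No.1" ponkan (EG), with nucellus or integument and with 18, 28 or 32 days after pollination (DAP), at 3 libraries per group. All libraries shared the amplification of nanogram amounts of RNA from random primers, and no treatment or altered gene is named in the labels. The protocol names 2 sequencing instruments without saying which read which library, so an instrument batch cannot be told apart from the groups or from libraries that stood apart. The columns of the deposited tables number the stages 1 to 3, and these were taken to run from the earliest to the latest day, an assumption, since the labels do not say so. Since no label names the tree or fruit of a captured region, libraries of a group may share one, and the tests below would then give p-values that are too small. Total counts ran from 12687779 to 20947644 per library. Libraries of a group differed by more than counting error in every pair, least so between replicates 2 and 3 of EG at 32 DAP, with a chi-square per degree of freedom of 7.83 in integument and 9.90 in nucellus. A set of 21 identifiers that rise and fall together, found after the values were seen and holding none of the 150 members, took 1.46% to 34.2% of a library's counts, with a median of 5.64%.

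The members lay at moderate level. Their mean level ran from 50.2 to 269 CPM with a median of 70.8 CPM, and no member had a count of 0 in any library. Counts of a member in a library ran from 434 to 8150. Counting error at the mean count of each member would alone give an SD of 0.0209 to 0.0484 on the log2 scale. It is larger in a library where the count is lower. The SDs found were 0.163 to 0.267, with a median of 0.249, so most of the remaining spread was larger than counting error, which is the only error these counting values cover. The other 2466 candidates had a median SD of 0.486, and the highest was 3.88. As a coefficient of variation, the SD of CPM as a share of its mean, the members stood at 11.8% to 20.0%, and the median of the other candidates was 33.5%. Members were spread over the candidates' range of levels. In 4 bins of 654 candidates by mean CPM they made up 5.96%, 6.27%, 6.27% and 4.43%, from the lowest bin to the highest.

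**Figure D1:**
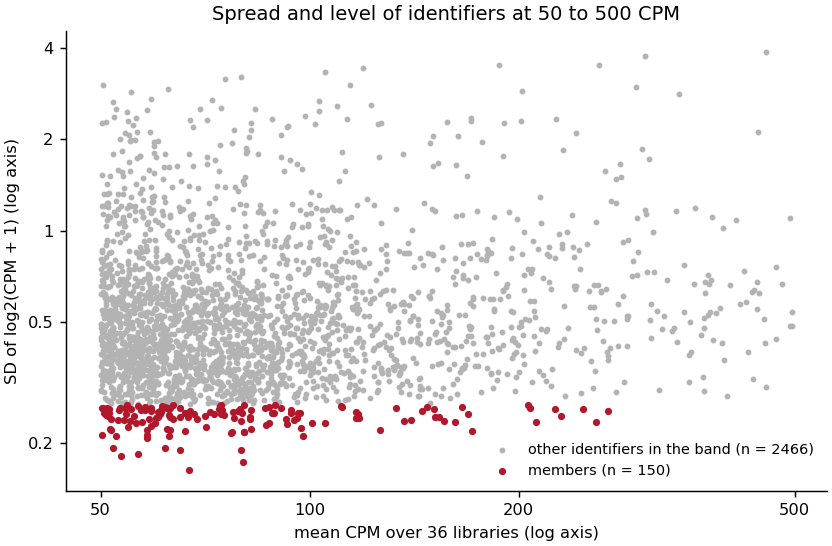
Mean CPM over 36 libraries (horizontal, log axis) against the SD of log2(CPM + 1) (vertical, log axis) for the 2616 candidate identifiers, each a point. The 150 members, in red, form the lower edge, from 50.2 to 269 CPM in mean level and from 0.163 to 0.267 in SD.

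Where the rule ended, values changed little. The last identifiers kept were c110737_g1, with an SD of 0.267 and a mean of 89.2 CPM, and c49443_g1, with an SD of 0.267 and a mean of 74.5 CPM. The first ones left out were c5027_g1, with an SD of 0.268 and a mean of 56.6 CPM, and c20349_g1, with an SD of 0.268 and a mean of 62.0 CPM. The limit of 150 therefore falls in a run of nearly equal values, and membership near it carries little information.

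A property the rule did not use was transcript length. The effective length that the authors' FPKM values imply (CPM divided by FPKM, the level scaled by library size and transcript length) had a median of 3129 bases in members and 2496 bases in the other candidates. In 4 bins of 654 candidates by length, members made up 3.36% of the shortest (249.8 to 1715 bases), 4.89% and 5.20% of the middle bins and 9.48% of the longest (3519 to 11877 bases). On the per-length scale the members had a mean level of 4.28 to 75.6 FPKM with a median of 26.0 FPKM, and the median of the other candidates was 32.4 FPKM. These are descriptions across identifiers, which are not independent of each other.

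The smallest SD was that of c59194_g1, at 0.163. In HG nucellus its level was 72.4, 54.6 and 53.7 CPM at 18 DAP, 65.9, 89.3 and 70.4 CPM at 28 DAP and 68.6, 59.1 and 64.0 CPM at 32 DAP in replicates 1 to 3. In EG nucellus it was 76.1, 69.9 and 53.8 CPM at 18 DAP, 67.4, 62.3 and 67.3 CPM at 28 DAP and 66.8, 69.3 and 64.3 CPM at 32 DAP. These 18 nucellus libraries ranged from 53.7 to 89.3 CPM, and both ends were HG libraries. In HG integument the level was 64.1, 64.5 and 80.2 CPM at 18 DAP, 61.0, 58.0 and 75.1 CPM at 28 DAP and 69.98, 86.9 and 66.6 CPM at 32 DAP. In EG integument it was 72.0, 66.8 and 63.3 CPM at 18 DAP, 65.0, 67.7 and 57.0 CPM at 28 DAP and 69.5, 65.1 and 64.8 CPM at 32 DAP. The tissues overlapped throughout, and the mean was 66.4 ± 8.53 CPM in nucellus against 67.6 ± 7.40 CPM for integument libraries (SD, n = 18 each). The highest of its 12 group means was 1.25 times the lowest, and 71.4% of its remaining variation lay between libraries of the same group.

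The next 4 members had similar ranges. For c48017_g1 the lowest, median and highest nucellus library stood at 69.9, 84.5 and 102 CPM, and the integument libraries at 62.8, 72.6 and 97.9 CPM. The tissues overlapped widely, although 22.7% of its remaining variation lay between them. For c22878_g1 these values were 40.3, 52.7 and 65.3 CPM in nucellus and 46.8, 55.8 and 63.0 CPM in integument. Its integument libraries thus lay inside the nucellus range. For c42256_g1 they were 48.3, 56.5 and 79.2 CPM in nucellus and 40.3, 54.9 and 67.2 CPM in integument. For c87977_g1 they were 49.7, 82.1 and 92.4 CPM in nucellus and 56.3, 77.3 and 92.7 CPM in integument, and its lowest library was replicate 1 of EG nucellus at 28 DAP. Per length, the level of the first 5 members was 18.8 ± 2.26 FPKM for c59194_g1, 22.5 ± 2.76 FPKM for c48017_g1, 18.1 ± 2.27 FPKM for c22878_g1, 38.9 ± 5.15 FPKM for c42256_g1 and 13.1 ± 1.59 FPKM for c87977_g1 (SD, n = 36 each). Among all members the lowest mean was that of c104737_g1, at 50.2 ± 7.59 CPM, and the highest that of c5473_g1, at 269 ± 47.9 CPM (SD, n = 36).

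**Figure D2:**
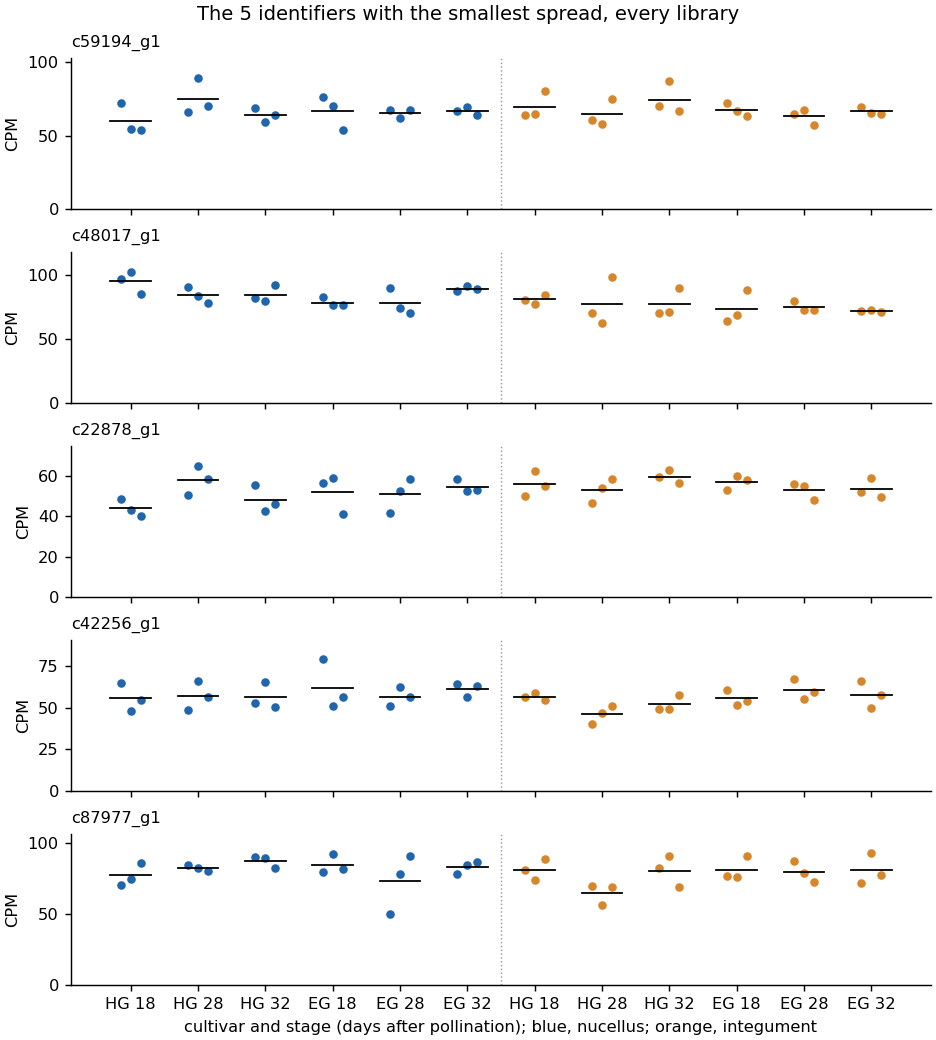
CPM (vertical, from 0) of the 5 identifiers with the smallest SD in each of the 36 libraries, by cultivar and stage in DAP, with nucellus in blue and integument in orange. Points are libraries and black lines are means of 3 libraries; nucellus and integument points overlap for all 5, and the low point of c87977_g1 at 49.7 CPM is replicate 1 of EG nucellus at 28 DAP.

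Single libraries marked the limits of evenness. Only 25 of the 150 members stayed within 0.5 log2 units of their own mean in every library, and 2 of the 2466 other candidates did. Within 1 log2 unit, a doubling or halving, 148 members stayed in every library, and 817 other candidates did. The largest single departure was that of c17315_g1, which stood at 29.6 CPM in replicate 1 of EG nucellus at 28 DAP, 1.28 log2 units below its mean, while its other 35 libraries lay between 55.4 and 87.1 CPM. That library was also the lowest of 53 members, and replicate 2 of HG nucellus at 28 DAP was the highest of 60. Over the 12 group means, which average 3 libraries, the highest group stood at 1.18 to 1.80 times the lowest, with a median of 1.46, and 95 members stayed within 1.5-fold. Among the other candidates 101 (4.10%) stayed within 1.5-fold, and their median was 2.18. HG nucellus at 28 DAP was the highest group for 58 members and HG integument at 28 DAP the lowest for 36.

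Much of what remained was a movement of the members together. The first principal component of their deviations held 31.7% of the variation and the second 9.75%. Of the 11175 pairs of members, 81.6% had a positive correlation over the libraries, with a median Pearson r of 0.26. Between the other candidates the median r was 0.17, so a joint movement was not particular to the members. These libraries share their depth and scaling, so the values are descriptions. The median deviation of the 150 members from their own means, a measure of how high the whole set stood in a library, ran from -0.32 in replicate 1 of EG nucellus at 28 DAP to 0.35 in replicate 2 of HG nucellus at 28 DAP. In the first of these libraries 116 members lay below their own mean, and in the second 139 lay above it. The median deviation passed 0.2 in size in 4 libraries, the others being replicate 3 of EG nucellus at 18 DAP at -0.22 and replicate 2 of HG integument at 28 DAP at -0.21. With the median deviation of each library taken away, the median SD of a member was 0.203 in place of 0.249, and the SD was lower for 116 of the 150. A fall is partly fixed, since that median comes from the same members.

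The libraries at the ends differed from the others in further values. The set of 21 co-varying identifiers held 34.2% of the counts of replicate 1 of EG nucellus at 28 DAP, 27.9% of those of replicate 3 of EG nucellus at 18 DAP and 17.2% in replicate 2 of HG integument at 28 DAP, where the members stood low, and 4.195% in replicate 2 of HG nucellus at 28 DAP, where they stood high. Libraries between the ends did not all follow this order. Replicate 1 of EG integument at 28 DAP, with 18.7%, stood at -0.10, and replicate 3 of HG nucellus at 28 DAP, with 14.4%, at 0.03. Replicate 1 of HG integument at 28 DAP, with 1.70%, stood at -0.10, and replicate 1 of EG nucellus at 18 DAP, with 1.46%, at 0.11. With CPM taken over the counts outside that set, the median deviation was 0.15 for replicate 1 of EG nucellus at 28 DAP. It was 0.12 for replicate 3 of EG nucellus at 18 DAP. The range over all libraries was 0.485 in place of 0.668 log2 units. In replicate 2 of HG nucellus at 28 DAP the median deviation was still 0.28. The effective lengths behind the authors' FPKM values were 65 bases below the median of the libraries there, the largest such offset. The next below were 46 bases in replicate 2 of HG integument at 28 DAP, where the members stood at -0.21, 42 in replicate 3 of HG nucellus at 28 DAP, at 0.03, and 36 in replicate 3 of HG integument at 28 DAP, at -0.02. The largest above were 43 bases in replicate 3 of HG nucellus at 32 DAP, at 0.004, and 41 in replicate 1 of EG integument at 18 DAP, at -0.08. The part of that offset in the level of the members was not tested.

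**Figure D3:**
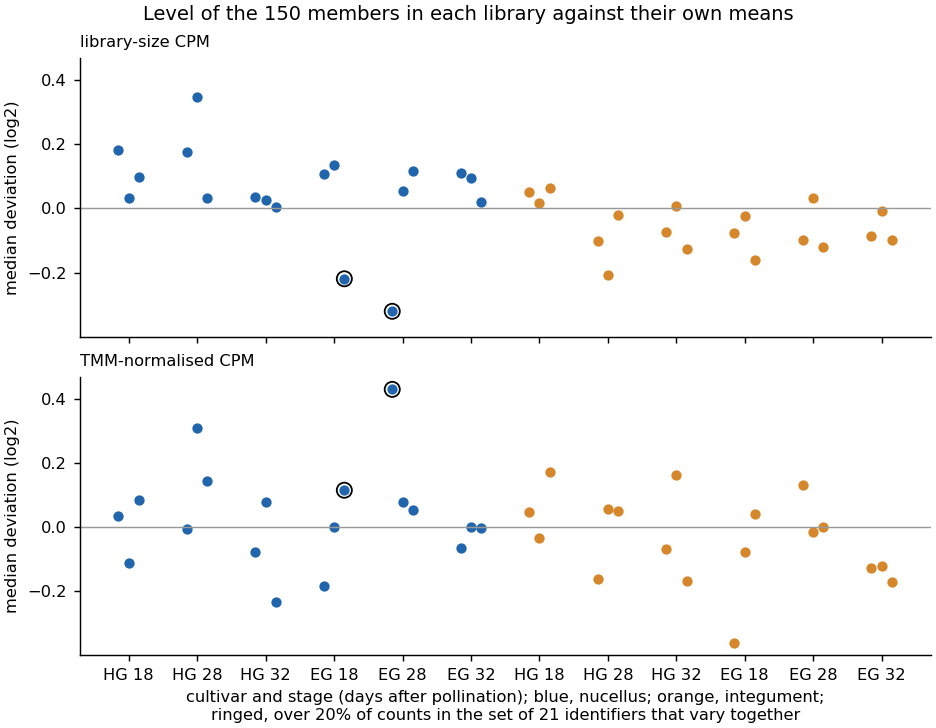
Median deviation of the 150 members from their own means (log2, vertical) in each library, by cultivar and stage in DAP, with library-size CPM in the upper panel and TMM-normalised CPM in the lower; nucellus is blue, integument orange, and ringed points are the libraries with 34.2% and 27.9% of counts in the set of 21. Replicate 1 of EG nucellus at 28 DAP is the lowest point in the upper panel, at -0.32, and the highest in the lower, at 0.43.

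The place of some libraries depended on the scaling. TMM normalisation, which scales each library so that most identifiers keep their level, gave replicate 1 of EG nucellus at 28 DAP a factor of 0.592, the lowest of the 36. On that scale the members stood 0.43 log2 units above their means in this library, the highest value of all, against -0.32 by library size. The lowest on the TMM scale was replicate 1 of EG integument at 18 DAP, at -0.36, which stood at -0.08 by library size. Replicate 2 of HG nucellus at 28 DAP stood high on both, at 0.35 by library size and 0.31 by TMM. The median difference between the scales in a library was 0.11 log2 units. On the TMM scale the members had a median SD of 0.258, and it ran from 0.136 to 0.387. The same rule applied to TMM-normalised CPM chose 70 of the 150 members, and with DESeq2 size factors it chose 71. Of the first 5 members, c59194_g1 took rank 110 by TMM, c48017_g1 rank 182, c22878_g1 rank 91, c42256_g1 rank 136 and c87977_g1 rank 30. All 5 ranked lower on the TMM scale, which was largely fixed, since they were chosen for holding the first ranks by library size.

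Ratios between members do not depend on the scaling. The SD of the log2 ratio of a pair over the 36 libraries had a median of 0.292 in members and 0.712 in the other candidates. This gap was largely fixed by the rule, since members were chosen for a small SD of their own level. Among members the SD of the ratio was smallest, at 0.072, for c88309_g1 and c111449_g1. Their ratio stayed between 0.936 and 1.155, and counting error alone would give an SD of 0.062. Their levels were 63.6 ± 11.0 and 61.3 ± 11.6 CPM (SD, n = 36), and their Pearson r over the libraries was 0.96, the highest of any pair. Near-identical copies can share reads, and without sequences it could not be checked whether this pair does. Averaged over all partners, the SD of the ratio was 0.245 for the member with the smallest value and 0.374 for the one with the largest. On this measure c59194_g1 took rank 10 and c87977_g1 rank 11, while c48017_g1, c22878_g1 and c42256_g1 took ranks 46, 42 and 48, and 6 of the first 20 members by SD were among the first 20 by ratio.

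As a common reference, the geometric mean of all 150 members had an SD of 0.121 log2 units over the libraries, and its highest library stood at 1.56 times its lowest. The geometric mean of the first 5 members had an SD of 0.1001 and differed from that of all 150 by at most 0.20 log2 units. That of the first 20 had an SD of 0.101 and differed by at most 0.14. The SD over libraries of the difference from the full set was 0.090 for the first 5 and 0.045 for the first 20, beside the SD of 0.121 of the full set itself. These are the libraries on which the members were chosen. In summed level the members took 1.36% ± 0.129 of the counts in nucellus and 1.25% ± 0.0727 in integument (SD, n = 18 each). The nucellus libraries ranged from 1.06% to 1.67%, which enclosed the integument range of 1.09% to 1.36%. In such bulk tissue, fewer cells of a type and less RNA per cell cannot be told apart.

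The evenness of identifiers chosen on part of the libraries was also described in the libraries the choice had not used. When the rule was applied to the 18 HG libraries alone, its 150 identifiers had a median SD of 0.218 there and of 0.300 in the 18 EG libraries, where the remaining candidates had 0.471. Of these 150, 147 lay below that median of the remaining candidates. Chosen on EG alone, the median SD was 0.216 in EG and 0.295 in HG, against 0.470 for the remaining candidates, and 147 of 150 lay below that median. The lists of the 2 cultivars shared 23 identifiers, 15.3% of each. They were drawn from 2711 candidates in HG and 2531 in EG. Over all 36 libraries the 150 members made up 5.73% of the candidates. Chosen on nucellus alone, the median SD was 0.222 in nucellus and 0.220 in integument, where the remaining candidates had 0.383. Chosen on integument alone, it was 0.175 in integument and 0.300 in nucellus, against 0.472 for the remaining candidates. In both cases 145 of 150 lay below the median of the remaining candidates. The lists of the 2 tissues shared 32 identifiers, 21.3% of each, out of 2804 candidates in nucellus and 2462 in integument. In median SD, the identifiers chosen on a single cultivar or tissue were thus more even than the remaining candidates in the other. The largest SD in the libraries not used was 0.748 for the choice on HG, 0.616 on EG, 0.757 on nucellus and 0.585 on integument. The tissues may not be independent of each other. Same-numbered nucellus and integument libraries deviated together in 17 of 18 pairs at a correlation over 0.1, and whether they share material was not tested. The lists had the smaller part of their identifiers in common. Of the 150 members, 8 were on all 4 of these lists, among them all of the first 5, which is partly fixed because the lists use the same libraries as the rule.

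**Figure D4:**
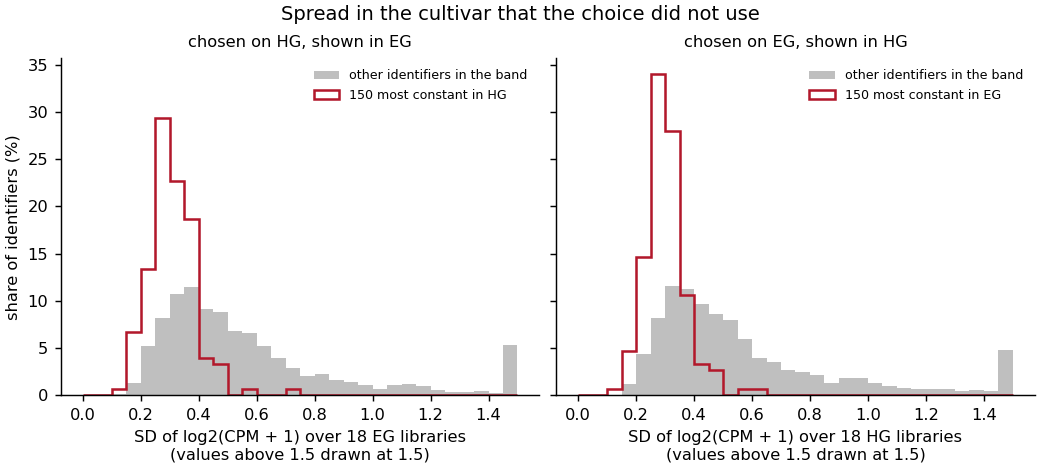
Share of identifiers (%, vertical) by the SD of log2(CPM + 1) in the cultivar that was not used for the choice (horizontal), with the 150 most even identifiers of the other cultivar as a red line and the remaining candidates in grey. The red distributions lie to the left of the grey, with medians of 0.300 against 0.471 in EG and 0.295 against 0.470 in HG.

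The members varied more among nucellus libraries than among integument libraries. Their median SD was 0.248 over the 18 nucellus libraries and 0.203 over the 18 integument libraries, and 118 of the 150 had the higher SD in nucellus. Among the other candidates 68.6% did, so the tilt was shared by transcripts of this level. Without replicate 1 of EG nucellus at 28 DAP and replicate 2 of HG nucellus at 28 DAP, 86 members had the higher SD in nucellus, as did 54.1% of the other candidates, and the median there was 0.212. By stage the median SD was 0.229 at 18 DAP, 0.283 at 28 DAP and 0.199 at 32 DAP (12 libraries each), and by cultivar 0.245 in HG and 0.233 in EG. These differences in spread were not tested.

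The division of each member's variation showed where the evenness ended. A median of 57.1% lay between libraries of the same group, 8.17% between the tissues, 5.07% between the stages, 2.97% between the cultivars and 19.0% in their interactions. For the other candidates the medians were 50.03% within groups, 12.2% between tissues, 6.12% between stages, 2.76% between cultivars and 15.5% in interactions. A division in proportion to the 35 degrees of freedom would give mean shares of 68.6%, 2.86%, 5.71%, 2.86% and 20.0% in the same order. The members' median for tissue was above its mean share and that within groups below. For a share with few degrees of freedom the median lies below the mean when there is no effect. Medians for stage and cultivar close to the mean shares therefore do not show that these left no difference. The tissue share of a member reached 46.7% in c55620_g1, the stage share 24.5% in c60978_g1 and the cultivar share 30.3% in c5286_g1.

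By library size, tissue left the largest median difference of the comparisons made. On that scale the mean log2 level in nucellus minus that in integument had a median of 0.10 over the members and ran from -0.24 to 0.36, and 115 of 150 members were above 0. The other candidates had a median of 0.17, with 65.9% above 0. The direction of this shift is relative to the scaling. On the TMM scale the median of the members was 0.06 with 102 above 0, and with DESeq2 size factors it was 0.05 with 96 above 0. Factors taken from the members themselves hold their median near 0 by construction, and the fitted median was then -0.01 with 71 above 0. For the whole table, edgeR's quasi-likelihood test with TMM called 35.5% of 57344 identifiers between the tissues (Benjamini-Hochberg adjusted p, threshold 0.05), 16.6% higher and 18.9% lower in nucellus. Among the 150 members it called 27, 24 higher and 3 lower in nucellus. The choice of members limited how far they could differ, so nothing is read from this count. With factors taken from the members themselves the split of the 26 then called was 9 higher and 17 lower. That scaling centres the members, so a loss of the tilt was largely fixed in advance. Under every other fit more members were called higher than lower in nucellus, such as 40 and 1 by library size and 24 and 6 with DESeq2.

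Among the members called, the largest positive differences were those of c55620_g1 and c729_g1. The level of c55620_g1 was 168, 226 and 283 CPM in the lowest, median and highest nucellus library and 143, 179 and 230 CPM in integument, with means of 233 ± 36.1 and 180 ± 20.2 CPM (SD, n = 18 each). The tissues overlapped between 168 and 230 CPM, and the mean log2 difference was 0.36. For c729_g1 the values were 51.0, 57.8 and 79.4 CPM in nucellus and 31.7, 48.5 and 62.8 CPM in integument, with a log2 difference of 0.35. On the integument side c36704_g1 stood at 53.1, 73.2 and 90.4 CPM in nucellus and 63.8, 87.8 and 119.7 CPM in integument, a log2 difference of -0.24. The next was c88309_g1, of the pair with the steadiest ratio, at 41.5, 57.8 and 94.0 CPM in nucellus and 54.0, 67.4 and 92.2 CPM in integument, a log2 difference of -0.19. Groups overlapped for all of these, and the sizes are capped by the rule. The edgeR adjusted p was 0.0031 for c55620_g1, 0.015 for c729_g1, 0.011 for c36704_g1 and 0.031 for c88309_g1. The first 3 named were called under all 8 alternative fits with their direction kept, also with factors taken from the members, and c88309_g1 was called under 5 of the 8. Its call was also lost without replicate 1 of HG nucellus at 18 DAP, at a fitted log2 difference of -0.21, or without replicate 1 of EG nucellus at 18 DAP, at -0.21, against -0.23 with all libraries.

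**Figure D5:**
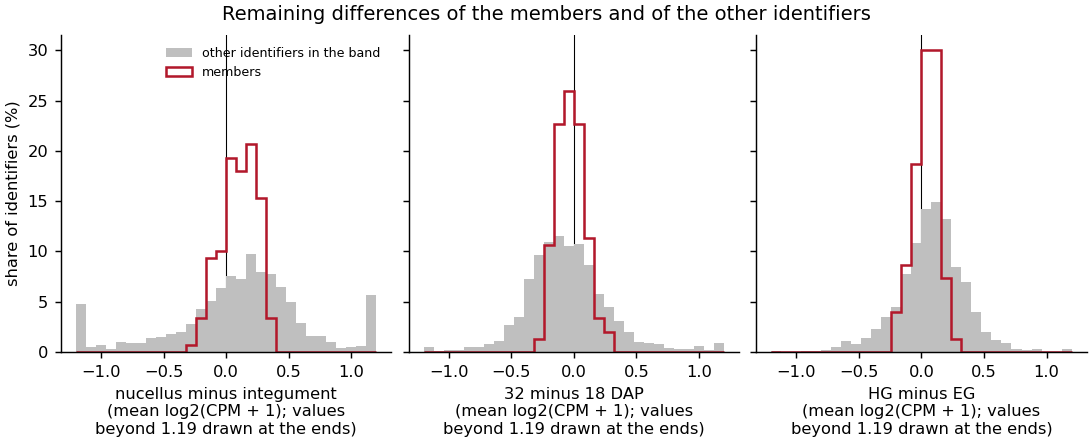
Share of identifiers (%, vertical) by the remaining difference in mean log2(CPM + 1) between tissues, between 32 and 18 DAP and between cultivars (horizontal), with the 150 members as a red line and the other 2466 candidates in grey. Members lie between -0.24 and 0.36 for tissue, -0.26 and 0.27 for stage and -0.22 and 0.28 for cultivar.

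Stage differences were smaller than the tissue difference by library size, but the shift from 18 to 28 DAP turned its direction with the scaling and was the larger on the TMM and DESeq2 scales. Between 18 and 32 DAP the log2 difference of the members had a median of -0.02 by library size and -0.04 on the TMM scale, with 59 and 54 members above 0. Between 18 and 28 DAP it was -0.03 by library size with 56 members above 0, but 0.11 on the TMM scale with 130 above 0 and 0.10 with DESeq2 size factors with 128 above 0. In the joint test of the 3 stages, edgeR called 2.08% of all identifiers, 1.16% higher and 0.924% lower at 32 than at 18 DAP. Of the 150 members it called 1, c60978_g1, which was lower. An unadjusted p under 0.05 was found for 38 of the 150 members and for 20.6% of all identifiers. With edgeR by library size alone this held for 8 members and 10684 of 57344 identifiers, so the count depended on the scaling. DESeq2 called 8 members and 3984 of 57340 identifiers, and voom with quality weights called 24 members and 8447 of 57344 identifiers. The level of c60978_g1 was 52.1, 62.6 and 86.0 CPM in the lowest, median and highest of the 12 libraries at 18 DAP. It was 44.2, 63.2 and 69.4 CPM at 28 DAP and 38.5, 55.3 and 68.9 CPM at 32 DAP. The stages overlapped, with means of 63.9 ± 9.81, 63.0 ± 6.76 and 53.6 ± 9.52 CPM (SD, n = 12 each). In HG the means at 18, 28 and 32 DAP were 74.8 ± 10.6, 66.0 ± 3.84 and 47.5 ± 1.04 CPM in nucellus and 65.4 ± 8.44, 63.5 ± 4.98 and 44.4 ± 8.57 CPM in integument (SD, n = 3 each). In EG they were 57.9 ± 4.12, 63.8 ± 2.04 and 63.8 ± 6.48 CPM in nucellus and 57.7 ± 5.87, 58.7 ± 12.9 and 58.6 ± 2.56 CPM in integument (SD, n = 3 each). The means were thus lower at 32 than at 18 DAP in both HG tissues and not in EG, a difference between cultivars that was not tested. The call of c60978_g1 was absent under 6 of the 8 other fits and without any of 27 of the 36 libraries. Its fitted log2 difference without any of those libraries was -0.30 to -0.23, against -0.28 with all.

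Between cultivars the log2 difference, HG minus EG, had a median of 0.05 by library size with 103 members above 0, and of 0.02 on the TMM scale with 89 above 0. For the whole table edgeR called 2.27% of identifiers, 1.32% higher and 0.95% lower in HG, and it called 0 of the 150 members. An unadjusted p under 0.05 was found for 15 of the 150 members and for 17.3% of all identifiers. DESeq2 called 4 members and 2992 of 56228 identifiers, and voom with quality weights called 5 members and 4663 of 57344 identifiers. The largest values of either sign were given by c5286_g1 and c11540_g1. The first stood at 64.5, 102 and 122 CPM in the lowest, median and highest HG library and at 60.7, 78.3 and 102 CPM in EG, with means of 100.3 ± 16.8 and 81.7 ± 10.0 CPM (SD, n = 18 each). The second stood at 40.7, 52.3 and 72.8 CPM in HG and at 43.7, 63.8 and 79.2 CPM in EG, with means of 54.1 ± 8.32 and 63.3 ± 9.54 CPM. The cultivars overlapped over most of their range for both.

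The interactions of tissue with cultivar and of tissue with stage were tested as well. For cultivars edgeR called 0% of all identifiers and 0 of the members, with 1 member and 2.86% of all identifiers at an unadjusted p under 0.05. Over the whole table DESeq2 called 2 identifiers and limma on FPKM and voom with quality weights 0, and each called 0 members. For stages edgeR again called 0% of all identifiers and 0 members, with 0 members and 3.15% of all identifiers at an unadjusted p under 0.05. Over the whole table DESeq2 called 25 identifiers, limma on FPKM 10 and voom with quality weights 13, and each called 0 members. A lack of calls does not show that the members' tissue difference was alike across cultivars or stages.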

How the data were processed

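The members and comparisons were chosen with earlier results of these data known. Per the labels' protocols, RNA of laser-captured ovule tissue was amplified as cDNA and sequenced in pairs. The submitters' processing notes name cutadapt, Bowtie2, RSEM and DESeq; their versions, settings and assembly are recorded in no label or header. The authors deposited whole-number read counts, used as deposited, and FPKM values, rounded by the authors. Total counts were 12687779 to 20947644 per library; counting errors cover sampling only.

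Computed here: library-size CPM and the rule (Python 3.11.15), and edgeR 4.0.16 quasi-likelihood tests in R 4.3.3 with TMM. A filter (filterByExpr, minimum count 10, minimum total 15) kept 57344 identifiers, all 150 members among them. A single model of 12 group means was fitted to 36 libraries (24 residual degrees of freedom), with Benjamini-Hochberg adjustment over all identifiers tested. Alternatives were DESeq2 1.42.0, limma 3.58.1 (voom; log2(FPKM + 0.1) of the deposited FPKM), other scalings, no filter, a replicate block and single libraries left out. The edgeR and selection steps were tested on simulated data. Identifiers named are the 5 with the smallest SD, those of lowest and highest mean, those next to the limit, up to 2 of each sign called per comparison (or the largest of each sign where none was called), the largest single deviation and the steadiest pair.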

Additional observations from a re-analysis of the deposited data

How the results depend on the processing

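The list depended on some settings. It shared 70 identifiers with the list by TMM, 71 with that by DESeq2 size factors, 74 by median absolute deviation, 69 by SD within groups, 30 for means of 100 to 500 CPM, 38 for 20 to 1000 CPM, and 71, 80, 67 and 63 for HG, EG, nucellus and integument alone. It shared 141 by deposited FPKM, 150 and 142 with a pseudocount of 0.1 and 5, and 128 by coefficient of variation. With CPM outside the co-varying set, chosen after seeing the data, it shared 94. With single libraries left out it shared 103 (without EG nucellus 28 DAP replicate 1) to 148. The tissue count of 27 members became 41 by library size, 8 without a filter, 44 by voom and 64 (50 higher, 14 lower) with the replicate block. With single libraries left out it was 16 to 32: 16 without replicate 2 of EG nucellus at 18 or 32 DAP, and 17 without EG integument 28 DAP replicate 3 or HG integument 32 DAP replicate 1. The stage count of 1 became 8 by DESeq2, 24 by voom and 0 under the other 6 fits, the replicate block among them. With single libraries left out it was 0 to 6: 6 without HG nucellus 28 DAP replicate 1, 5 without EG nucellus 28 DAP replicate 3, 3 without HG integument 28 DAP replicate 1, 1 without 6 other libraries and 0 without the remaining ones. The cultivar count of 0 became 5 by voom and 4 by DESeq2, and was 0 with the replicate block and without any single library. Both interaction counts stayed at 0 under all 8 fits and without any single library. With the replicate block 7 of 57344 identifiers were called for tissue by stage, and 6 members and 3558 identifiers had an unadjusted p under 0.05. For tissue by cultivar 0 identifiers were called, and 17 members and 3260 identifiers had an unadjusted p under 0.05. The range of the library medians, 0.668 log2 units, became 0.790 by TMM, 0.485 outside the co-varying set and 0.932 for members chosen on the other cultivar. With single libraries left out it was 0.501 (without HG nucellus 28 DAP replicate 2) to 0.678. The within-group share of 57.1% stayed between 51.8% and 58.5% under every alternative run. The causes of these changes were not tested. Same-numbered nucellus and integument libraries deviated together in 17 of 18 pairs at a correlation over 0.1 (lowest 0.053), and 17 had their highest correlation with their own number; this is a hint from the data, and the labels do not say that numbers mark shared material.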
